A study of Rattus norvegicus with 6 samples.

Results

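Chemokines are small secreted proteins that direct the movement of leukocytes, and most of them act through receptors that couple to inhibitory G proteins. Their family names come from the spacing of conserved cysteines (CC, CXC, CX3C and XC), and atypical receptors bind ligands without G protein signalling and so limit how much ligand is free. In liver, Kupffer cells, sinusoidal endothelial cells, stellate cells and hepatocytes themselves make chemokines, and CXC ligands such as Cxcl1 are known for drawing neutrophils into inflamed liver. The members here were all rows of the deposited expression table whose symbol is a chemokine ligand of the Ccl, Cxcl, Cx3cl or Xcl series, a Ccr, Cxcr or Cx3cr receptor, or an Ackr atypical receptor. That gave 54 genes of the 25926 features in the table, made up of 20 CC ligands, 12 CXC ligands, 2 CX3C and XC ligands, 17 receptors and 3 atypical receptors.

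RNA-seq of liver was compared between 3 rats that received total parenteral nutrition (TPN, in which all nutrients are infused into a vein) for 7 days and 3 control rats that received 0.9% saline. The labels give the strain as Sprague-Dawley and the age as 4 weeks for every rat. The TPN rats carried the disease label PNALD (parenteral nutrition-associated liver disease) and the controls the label normal. How the control rats were fed is not given in the sources used here, and the 7 days are recorded for the TPN rats only. The stated differences between the groups are thus saline against TPN and the disease label.

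Values are FPKM, which scale the fragments of a gene by its length and by the size of its library, and they summed to between 509630 and 544670 per rat. The table holds no counts and its depth is unknown. The tissue label was borne out by its hepatocyte markers, with albumin (Alb) at 27621 ± 13520 FPKM in TPN and 42954 ± 9050 FPKM in control liver (SD, n = 3 each). The rats within each group differed in inflammation. Lcn2, an iron-binding acute-phase protein, measured 9127, 172 and 77.2 FPKM in TPN 1, 2 and 3, against 3.68, 112 and 7.29 FPKM in control 1, 2 and 3. A2m, the main acute-phase macroglobulin of the rat, measured 1696, 80.8 and 35.1 FPKM in TPN 1, 2 and 3, against 1.20, 84.1 and 6.69 FPKM in control 1, 2 and 3. TPN 1 and control 2 had the highest Lcn2 and A2m of their groups, and TPN 2 was near control 2 in both. Where leaving out TPN 1 or control 2 moved a log2 difference of a tested member reported singly by over 1.5 times, the value without that rat is given.

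The stretches before the start of 4 CXC ligand genes are shown first, because these genes hold both the widest spread between rats (Cxcl1) and the ligands whose TPN and control values did not overlap or that belong to the same receptor (Cxcl9, Cxcl10 and Cxcl11). Each is the 200 bases before the annotated RefSeq start of the gene in the build GRCr8, written 5′ to 3′ on the strand of the gene, and capitals mark matches to the kappa-B consensus, the sequence that NF-kB proteins bind.

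Cxcl1, chr14:17479322-17479521, minus strand: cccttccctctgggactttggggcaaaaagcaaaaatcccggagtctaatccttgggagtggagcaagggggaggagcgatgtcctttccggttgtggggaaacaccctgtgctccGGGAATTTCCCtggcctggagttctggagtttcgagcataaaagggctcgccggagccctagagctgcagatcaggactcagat
Cxcl9, chr14:16006966-16007165, plus strand: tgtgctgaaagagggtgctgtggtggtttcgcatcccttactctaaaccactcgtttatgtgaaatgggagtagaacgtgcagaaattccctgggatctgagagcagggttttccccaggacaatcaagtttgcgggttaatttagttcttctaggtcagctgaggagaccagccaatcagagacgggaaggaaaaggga
Cxcl10, chr14:15988866-15989065, plus strand: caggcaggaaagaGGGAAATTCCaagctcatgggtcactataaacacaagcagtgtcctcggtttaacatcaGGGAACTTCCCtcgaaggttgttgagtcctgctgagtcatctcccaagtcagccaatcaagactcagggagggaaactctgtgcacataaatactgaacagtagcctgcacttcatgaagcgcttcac
Cxcl11, chr14:15973528-15973727, plus strand: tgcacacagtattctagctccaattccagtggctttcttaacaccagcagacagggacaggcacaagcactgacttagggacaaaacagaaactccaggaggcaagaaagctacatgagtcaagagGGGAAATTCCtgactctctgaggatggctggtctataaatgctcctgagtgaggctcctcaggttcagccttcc

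In Cxcl1 the matches lay 84 to 74 bases before the start, and in Cxcl11 the match lay 74 to 65 bases before it. Cxcl10 held a match 187 to 178 bases and a pair of overlapping matches 128 to 118 bases before the start. The Cxcl9 window held none. The kappa-B consensus was searched on both strands, where a match on one strand can overlap a match on the other. It was found in 9 of the 41 members that have an entry in the RefSeq promoter table (22%) and in 5.16% of all 33469 promoter windows of the same length. Besides Cxcl1, Cxcl10 and Cxcl11 the matching members were Ccl7, Ccl9, Ccl20, Ccr3, Cxcl2 and Cxcl6. TTCNNNGAA, the form that STAT proteins bind and which reads the same on both strands, was in 3 of the 41, against 6.07%. The consensus of the interferon-stimulated response element, searched on both strands, was in 1 of the 41 (2.44%), Ccl19, against 2.74% of all windows. The box TATAAA, searched on both strands, was in 12 of the 41 (29.3%), against 10.4% of all windows. These matches describe the windows and were not linked to the levels.

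Of the 54 members, 18 averaged 1 FPKM or more across both groups, which is the level at which features entered the test. Another 20 lay between 0.1 and 1 FPKM, and 16 lay under 0.1 FPKM, of which Ccl20, Cxcl3 and the receptor Cxcr1 were listed at 0 in every rat. The 18 were 7 of the 20 CC ligands, 8 of the 12 CXC ligands, 2 of the 3 atypical receptors and 1 of the 17 receptors. Ligand transcripts thus made up most of what was measured in whole liver, and the receptor genes lay low.

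**Figure D1:**
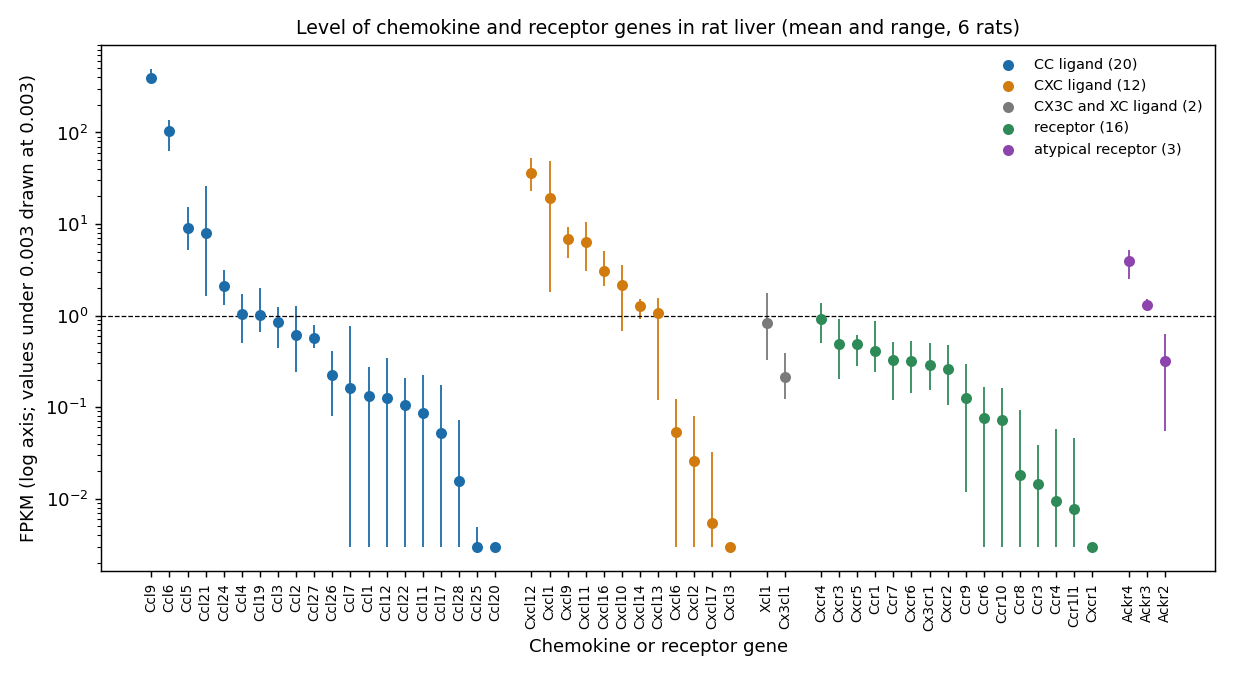
Mean FPKM (log axis) of 53 of the 54 genes over the 6 rats, with lines from the lowest to the highest rat and colours for the family; the dashed line marks 1 FPKM. Ccl9 and Ccl6 stand far above the rest, and the mean of every receptor gene drawn lies below the line except for the atypical receptors Ackr3 and Ackr4.

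Ccl9 and Ccl6, a pair of rodent CC ligands of the Ccr1 receptor, together held 81.4% of the FPKM summed over all members and rats. Ccl9 measured 499, 347 and 425 FPKM in TPN 1, 2 and 3, against 392, 357 and 362 FPKM in control 1, 2 and 3, a mean level above that of 98.7% of the 11362 features tested. The TPN rats spanned both ends of that range and enclosed all of the control values. Ccl6 measured 125, 111 and 62.5 FPKM in TPN 1, 2 and 3, against 109, 137 and 77.8 FPKM in control 1, 2 and 3. Their log2 differences (TPN minus control, on log2(FPKM + 1)) were 0.18 (SE 0.22, limma adjusted p = 0.813) for Ccl9 and -0.14 (SE 0.32, limma adjusted p = 0.917) for Ccl6, both within the spread between rats. Ccr1, their receptor, lay between 0.243 and 0.876 FPKM over all 6 rats.

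The test across all features, limma on log2(FPKM + 1) with Benjamini-Hochberg adjustment, called none of the 18 tested members at an adjusted p under 0.05, where it called 0.246% of all 11362 features, 0.0264% as higher and 0.22% as lower in TPN. At an unadjusted p under 0.05 there were 3 of the 18 members, Cxcl10, Cxcl12 and Cxcl9, all lower in TPN. Of all features, 11.4% had such a p in either direction, and 796 of the 11362 had it as lower. The same test with sample weights (arrayWeights) called 1 member, Cxcl12. Of the 18 members, 14 had a negative and 4 a positive log2 difference, with a median of -0.26, against a median of 0.0065 over all features. The median of the members was -0.036 without control 2. The groups did not overlap for 2 of the 18, both lower in TPN, where 9.09% of all features lay apart as lower, 8.02% as higher and 17.1% in either direction. The count without overlap is near these background shares, and the count at an unadjusted p under 0.05 rests on 3 members.

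**Figure D2:**
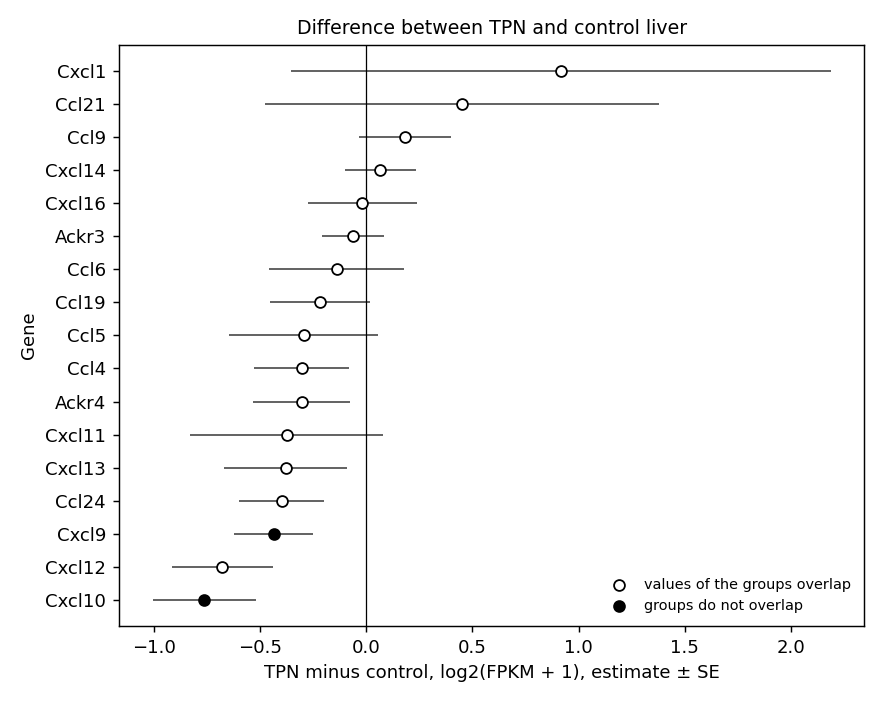
Difference between TPN and control liver for 17 of the 18 tested genes, TPN minus control on log2(FPKM + 1), as the limma estimate with its SE (n = 3 rats per group); filled points mark genes whose groups do not overlap. The 2 filled points, Cxcl9 and Cxcl10, lie below 0, and the SE of Cxcl1 and Ccl21 are the widest.

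The ligands of Cxcr3, a receptor of activated T cells and NK cells, are Cxcl9, Cxcl10 and Cxcl11, and all 3 are known as genes that interferon gamma induces. Cxcl10 measured 0.681, 1.36 and 2.08 FPKM in TPN 1, 2 and 3, against 3.02, 2.24 and 3.59 FPKM in control 1, 2 and 3. Every TPN rat lay below every control rat, with the closest approach between TPN 3 and control 2. The group means were 1.37 ± 0.700 FPKM in TPN and 2.95 ± 0.681 FPKM in control (SD, n = 3 each), and the log2 difference was -0.76 (SE 0.24, unadjusted p = 0.0144, limma adjusted p = 0.317). Over the alternatives tried, the adjusted p ran from 0.0522 to 0.857, and the log2 difference stayed negative in all of them.

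Cxcl9 measured 4.27, 6.0 and 6.74 FPKM in TPN 1, 2 and 3, against 9.18, 7.25 and 7.44 FPKM in control 1, 2 and 3. The groups again did not overlap, although TPN 3 and control 2 were close. The means were 5.67 ± 1.27 FPKM in TPN and 7.96 ± 1.07 FPKM in control (SD, n = 3 each), with a log2 difference of -0.44 (SE 0.19, limma adjusted p = 0.435), and -0.28 without TPN 1. Cxcl11 measured 3.08, 3.93 and 9.46 FPKM in TPN 1, 2 and 3, against 7.65, 3.57 and 10.6 FPKM in control 1, 2 and 3. Here TPN 3 and control 2 crossed to the other group's range, and the log2 difference was -0.37 (SE 0.45, limma adjusted p = 0.817). It was -0.10 without TPN 1, -0.78 without TPN 3, -0.75 without control 2 and -0.080 without control 3. TPN 1 was the lowest of the 6 rats for all of Cxcl9, Cxcl10 and Cxcl11, as it was for 31.5% of all features tested. In the RefSeq annotation Cxcl10 and Cxcl11 overlap the gene Art3, which measured 0.115 to 0.331 FPKM over the 6 rats. Cxcr3 itself was low, at 0.790, 0.515 and 0.216 FPKM in TPN 1, 2 and 3 and 0.299, 0.924 and 0.202 FPKM in control 1, 2 and 3.

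Of the interferon gamma target list, 12 of 17 genes were tested, none passed over all features, 3 had positive and 9 had negative log2 differences, and the median was -0.25. Psmb9, an immunoproteasome subunit, measured 12.5 ± 4.77 FPKM in TPN and 24.03 ± 3.95 FPKM in control (SD, n = 3 each; log2 difference -0.94, SE 0.27, limma adjusted p = 0.262). Tap1, a peptide transporter for antigen presentation, measured 4.01 ± 0.378 FPKM in TPN and 6.24 ± 1.49 FPKM in control (log2 difference -0.52, limma adjusted p = 0.356). The groups did not overlap for these 2 of the 12 tested genes, where 9.09% of all features lay apart as lower and 17.1% in either direction. Irf1, a transcription factor of the interferon response, measured 9.28 ± 1.04 FPKM in TPN and 8.95 ± 1.68 FPKM in control. Ifng, which encodes interferon gamma, was listed at 0 in 5 rats and at 0.0871 FPKM in TPN 3. Markers of T and NK cells, 15 of 15 in the table and 12 of them with a mean under 1 FPKM, summed to 20.6 to 26.7 FPKM in TPN and 20.1 to 32.7 FPKM in control, and Cd4 supplied most of each sum, at 15.2 to 17.6 FPKM in TPN and 12.9 to 21.2 FPKM in control. Gzma, a granzyme of cytotoxic cells, measured 1.28 ± 0.281 FPKM in TPN and 2.48 ± 0.287 FPKM in control (SD, n = 3 each; log2 difference -0.61, SE 0.16, limma adjusted p = 0.206). Gzmb, another granzyme, averaged 0.0853 FPKM in TPN and 0.184 FPKM in control, and Cd3g, a chain of the T cell receptor complex, 0.0605 FPKM in TPN and 0.518 FPKM in control. The groups did not overlap for Gzma, Gzmb and Cd3g. Of all features tested, 9.09% lay apart as lower, and of all features under a mean of 1 FPKM, 11.1% lay apart in either direction. Not all genes of the list were lower in TPN. Cd3d, another chain of the T cell receptor complex, averaged 0.104 FPKM in TPN and 0.107 FPKM in control. Cd8a averaged 0.956 FPKM in TPN and 0.776 FPKM in control, and Nkg7 1.04 FPKM in TPN and 0.818 FPKM in control, all with overlap. The part of these cells in the levels of Cxcl9, Cxcl10 and Cxcl11 was not tested.

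Cxcl12, which keeps Cxcr4-bearing leukocytes in tissue and is made by stromal and endothelial cells, was the CXC ligand with the highest mean. It measured 23.5, 23.1 and 36.0 FPKM in TPN 1, 2 and 3, against 52.7, 35.1 and 45.4 FPKM in control 1, 2 and 3. TPN 1 and TPN 2 lay below all controls, and TPN 3 lay just above control 2, so the groups overlapped by that 1 pair. The means were 27.6 ± 7.31 FPKM in TPN and 44.4 ± 8.88 FPKM in control (SD, n = 3 each), 37.9% lower in TPN, and the log2 difference was -0.68 (SE 0.24, unadjusted p = 0.0216, limma adjusted p = 0.351). The adjusted p ran from 0.0457 with sample weights to 0.946 without control 1 over the alternatives, with a negative log2 difference in each. After median-ratio scaling or quantile normalisation the groups no longer overlapped.

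Cxcr4, the signalling receptor of Cxcl12, measured 1.23, 0.716 and 1.38 FPKM in TPN 1, 2 and 3, against 0.498, 0.744 and 0.917 FPKM in control 1, 2 and 3 (exact permutation p = 0.3, 2-sided, where 0.1 is the smallest p that 3 rats against 3 allow). Ackr3, an atypical receptor that takes up Cxcl12, measured 1.26 ± 0.235 FPKM in TPN and 1.36 ± 0.082 FPKM in control (SD, n = 3 each). All 11 markers of stellate cells were in the table, and none of the 9 tested passed over all features. Of the 9, 8 had negative log2 differences and Dcn, a matrix proteoglycan, had one of 0.41. In 3 of the 8 the groups did not overlap, against 9.09% of all features lower without overlap. The summed level of the list was 89.4 to 119 FPKM in TPN and 120 to 203 FPKM in control, most of it from the collagen gene Col3a1 at 54.1 to 76.9 FPKM in TPN and 79.5 to 132 FPKM in control. Lrat, which stores retinol in stellate cells, measured 4.60 ± 1.69 FPKM in TPN and 13.6 ± 2.0 FPKM in control (log2 difference -1.42, SE 0.25, limma adjusted p = 0.0882). Endothelial markers, 10 of 11 in the table, summed to 132 to 158 FPKM in TPN and 106 to 166 FPKM in control. In whole liver, fewer cells of a type and less RNA per cell cannot be told apart, and the part of these cells in the level of Cxcl12 was not tested.

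Beside Cxcl9, Cxcl10 and Cxcl12, some markers of other cell types also had lower values in TPN. Of the 6 erythroid markers tested 4 fell in TPN by limma, and all 6 were lower without overlap, against 9.09% of all features. None of the 4 was called without a filter on low values, or after median-ratio scaling or quantile normalisation. The beta globin gene Hbb measured 115 ± 42.5 FPKM in TPN and 648 ± 41.1 FPKM in control (SD, n = 3 each; log2 difference -2.55, SE 0.30, limma adjusted p = 0.0353). The list summed to 231 to 578 FPKM in TPN and 2125 to 2420 FPKM in control. Cholangiocyte markers, all 8 in the table with 5 under a mean of 1 FPKM, summed to 11.3 to 15.1 FPKM in TPN and 15.4 to 23.7 FPKM in control, and none of the 3 tested passed. Epcam, an epithelial adhesion protein of bile ducts, measured 4.59 ± 0.653 FPKM in TPN and 8.22 ± 2.06 FPKM in control (log2 difference -0.70, SE 0.20, limma adjusted p = 0.262). Hepatocyte markers had 6 negative and 3 positive log2 differences among the 9 tested, with none called, and Apoa2, an apolipoprotein, measured 259.6 ± 78.2 FPKM in TPN and 876 ± 224 FPKM in control (log2 difference -1.77, SE 0.31, limma adjusted p = 0.0873). Monocyte markers summed to 35.3 to 81.1 FPKM in TPN and 28.0 to 51.1 FPKM in control. Lyz2 supplied most of each sum, at 21.9 to 69.1 FPKM in TPN and 16.8 to 38.3 FPKM in control. Ly6c of that list measured 1.08 ± 0.190 FPKM in TPN and 2.23 ± 0.455 FPKM in control without overlap (log2 difference -0.63, SE 0.17, limma adjusted p = 0.225). Platelet markers summed to 8.32 to 11.4 FPKM in TPN and 6.90 to 10.8 FPKM in control. None was called in either list. The part of red cells, bile duct cells and hepatocytes in the levels of Cxcl9, Cxcl10 and Cxcl12 was not tested.

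**Figure D3:**
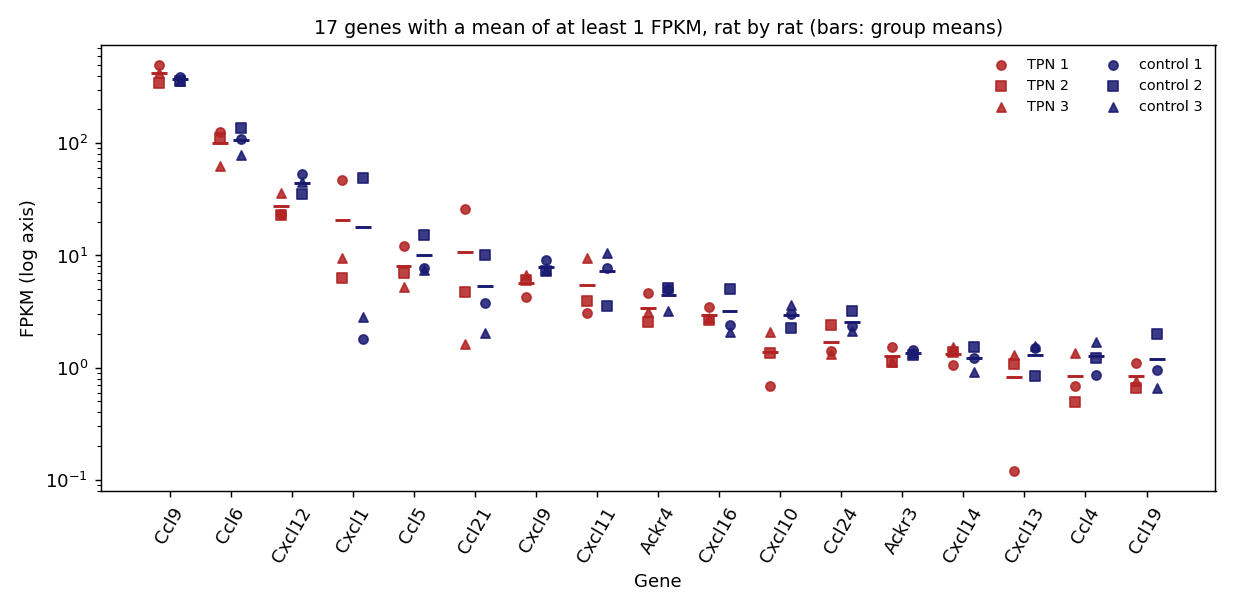
FPKM (log axis) of 17 of the 18 tested genes in each rat, TPN in red left of control in dark blue, with symbols for rats 1, 2 and 3 and bars for group means. Cxcl1 and Ccl21 show rats of 1 group many times apart, and Cxcl10 shows the TPN rats below the control rats.

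Cxcl1, a ligand of the neutrophil receptor Cxcr2, varied more within the groups than between them. It measured 46.8, 6.26 and 9.41 FPKM in TPN 1, 2 and 3, against 1.80, 49.1 and 2.83 FPKM in control 1, 2 and 3. TPN 1 and control 2 lay close to each other and far above the other 4 rats. The controls differed 27.3-fold among themselves, and the range of log2(FPKM + 1) within the controls was wider than that of 99.8% of the features tested. The TPN rats differed 7.47-fold, a range wider than that of 99.3% of features. Group means were 20.8 ± 22.5 FPKM in TPN and 17.9 ± 27.0 FPKM in control (SD, n = 3 each), with a log2 difference of 0.92 (SE 1.27, limma adjusted p = 0.845). It was 0.097 without TPN 1 and 2.23 without control 2. With both left out, TPN 2 and TPN 3 lay above control 1 and control 3 (log2 difference 1.41, limma adjusted p = 0.0756, 2 rats a group, within 0.0756 to 0.999 over all alternatives). The rats left out had the highest Cxcl1 of their groups. Leaving them out narrows the spread by itself, so that p cannot show a difference between the groups.

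The acute-phase genes followed the rats of high Cxcl1 in part. TPN 1 had the highest Cxcl1, Lcn2 and A2m of the TPN rats, and control 2 had the highest of each among the controls. TPN 1 was the highest TPN rat and control 2 the highest control rat in 11 of the 19 tested rows of the acute-phase list. The other 8 rows had another order, and TPN 2 was near control 2 in Lcn2, A2m and Fgg while its Cxcl1 was 6.26 FPKM in TPN 2, against 49.1 FPKM in control 2. Of the acute-phase list, 17 of 19 tested rows had positive log2 differences (median 0.94) and none passed over all features. The groups did not overlap for 2 of the 19, both higher in TPN, against 8.02% of all features. These were Lbp and 1 of the Cfb rows. Lbp measured 604, 312 and 320 FPKM in TPN 1, 2 and 3, against 28.2, 291 and 49.0 FPKM in control 1, 2 and 3. The Cfb row measured 36.6 ± 7.71 FPKM in TPN and 21.3 ± 3.18 FPKM in control (SD, n = 3 each), and another Cfb row overlapped. Fgg, a fibrinogen chain, measured 13853, 6854 and 6294 FPKM in TPN 1, 2 and 3, against 2590, 7104 and 2681 FPKM in control 1, 2 and 3. Among neutrophil markers, S100a8, a subunit of calprotectin, measured 21.5, 5.08 and 5.67 FPKM in TPN 1, 2 and 3, against 2.26, 9.55 and 4.25 FPKM in control 1, 2 and 3. All 13 neutrophil markers were in the table, 10 of them had a mean under 1 FPKM, Ltf was listed at 0 in every rat and the granule genes Mpo and Elane averaged 0.0591 and 0.0387 FPKM. The list summed to 20.03 to 49.4 FPKM in TPN and 10.9 to 34.6 FPKM in control. The part of these cells in the Cxcl1 level was not tested.

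**Figure D4:**
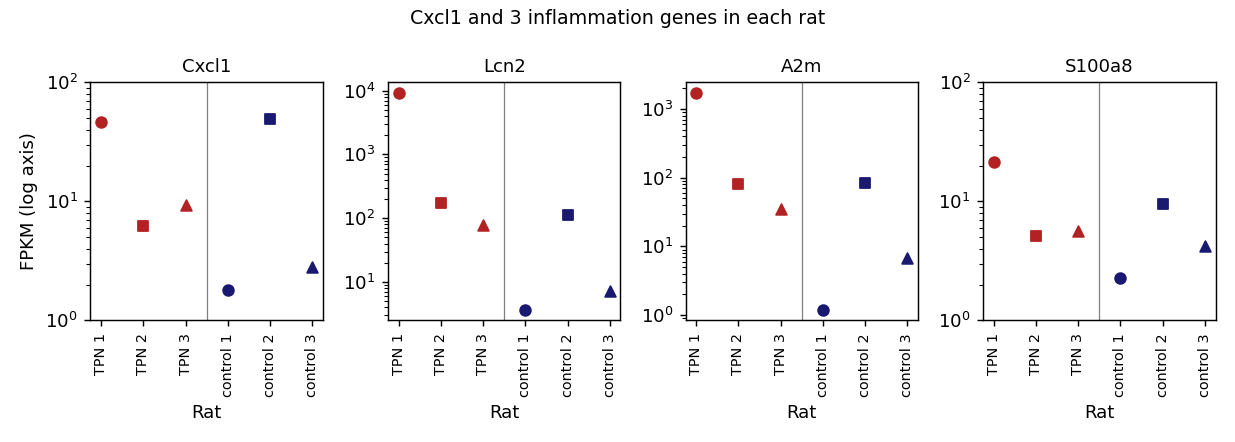
FPKM (log axes, 1 panel per gene) of Cxcl1, the acute-phase genes Lcn2 and A2m and the calprotectin gene S100a8 in each rat, TPN in red left of control in dark blue. TPN 1 is the highest TPN rat and control 2 the highest control rat in all 4 panels.

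Cxcr2, the receptor of Cxcl1, also had TPN 1 and control 2 as the highest rats of their groups, at a much lower level, with 0.480, 0.263 and 0.160 FPKM in TPN 1, 2 and 3 and 0.187, 0.384 and 0.106 FPKM in control 1, 2 and 3. The other Cxcr2 ligands in the table were near or at 0. Cxcl2 reached 0.0807 FPKM in TPN 3 and at most 0.0371 FPKM in the others, Cxcl6 stayed under 0.125 FPKM, and Cxcl3 was listed at 0 in all. Among inducers of Cxcl1, Il6 was listed at 0 in every rat and Tnf averaged 0.0977 FPKM in TPN and 0.0729 FPKM in control. Il1b, an inducer of neutrophil chemokines, measured 7.58, 3.83 and 4.30 FPKM in TPN 1, 2 and 3, against 3.03, 3.15 and 3.32 FPKM in control 1, 2 and 3. Every TPN rat was above every control rat (log2 difference 0.53, SE 0.22, limma adjusted p = 0.424). Il1a measured 7.37 ± 0.483 FPKM in TPN and 4.40 ± 0.484 FPKM in control (SD, n = 3 each; log2 difference 0.63, SE 0.14, limma adjusted p = 0.172), also without overlap. Il33, an alarmin cytokine, lay the other way, at 22.1 ± 5.37 FPKM in TPN and 33.4 ± 1.72 FPKM in control without overlap (log2 difference -0.60, SE 0.21, limma adjusted p = 0.346). Nfkbia, the NF-kB inhibitor that NF-kB itself induces, measured 15.7 ± 3.28 FPKM in TPN and 13.4 ± 1.09 FPKM in control. Of the list of NF-kB and cytokine inducers, 18 of 24 genes were tested, 14 with positive and 4 with negative log2 differences (median 0.21), and none passed over all features. The groups did not overlap for 3 of the 18 as higher and 1 as lower. Of all features tested, 8.02% lay apart as higher, 9.09% as lower and 17.1% in either direction.

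Ccl21, which guides Ccr7-bearing dendritic cells and T cells, also followed single rats. It measured 26.1, 4.75 and 1.62 FPKM in TPN 1, 2 and 3, against 3.75, 10.1 and 2.03 FPKM in control 1, 2 and 3. TPN 1 was again the highest TPN rat and control 2 the highest control rat, and TPN 3 was the lowest of all 6. Its mean was 2.05-fold higher in TPN (log2 difference 0.45, SE 0.93, limma adjusted p = 0.905), but without TPN 1 the log2 difference was -0.48. Ccl19, the other ligand of Ccr7, measured 1.11, 0.659 and 0.758 FPKM in TPN 1, 2 and 3, against 0.955, 1.98 and 0.661 FPKM in control 1, 2 and 3. Ccr7 itself lay between 0.119 and 0.518 FPKM.

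Control 2 was the highest of all 6 rats for 8 of the 18 tested members, while it was the highest for 8.14% of all features tested. It was the lowest for none of the 18, against 16.2% of all features tested. Within the groups, TPN 1 was the highest TPN rat and control 2 the highest control rat for 7 of the 18, namely Ccl5, Ccl6, Ccl19, Ccl21, Cxcl1, Cxcl16 and Ackr4, against 10.8% of all features. TPN 1 alone was the highest TPN rat for 9 members, against 22.8% of features, and control 2 the highest control rat for 10, against 25.9%. With both rats left out, the groups of 2 rats each did not overlap for 11 of the 18 members, against 47.3% of all features. With single rats left out the count was 2, 7 and 3 without control 1, 2 and 3 (21%, 32.9% and 23.6% of all features), and 5, 4 and 4 without TPN 1, 2 and 3 (31.2%, 27.2% and 29.9%). Among the 11 were Cxcl1, Cxcl14 and Cxcl16, higher in TPN, and Ackr3, Ackr4, Ccl5, Cxcl9, Cxcl10, Cxcl12 and Cxcl13, lower in TPN. The log2 difference without TPN 1 was 0.055 for Ccl9, -0.33 for Ccl6, -0.60 for Ccl5, -0.49 for Ackr4, -0.15 for Ackr3, 0.15 for Cxcl14 and -0.11 for Cxcl16. Without control 2 it was 0.052 for Ccl6, 0.024 for Ccl19, 0.97 for Ccl21, 0.16 for Cxcl14 and 0.28 for Cxcl16. The sign therefore turned without control 2 for Ccl6, Ccl19 and Cxcl16, as it did for Ccl5.

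**Figure D5:**
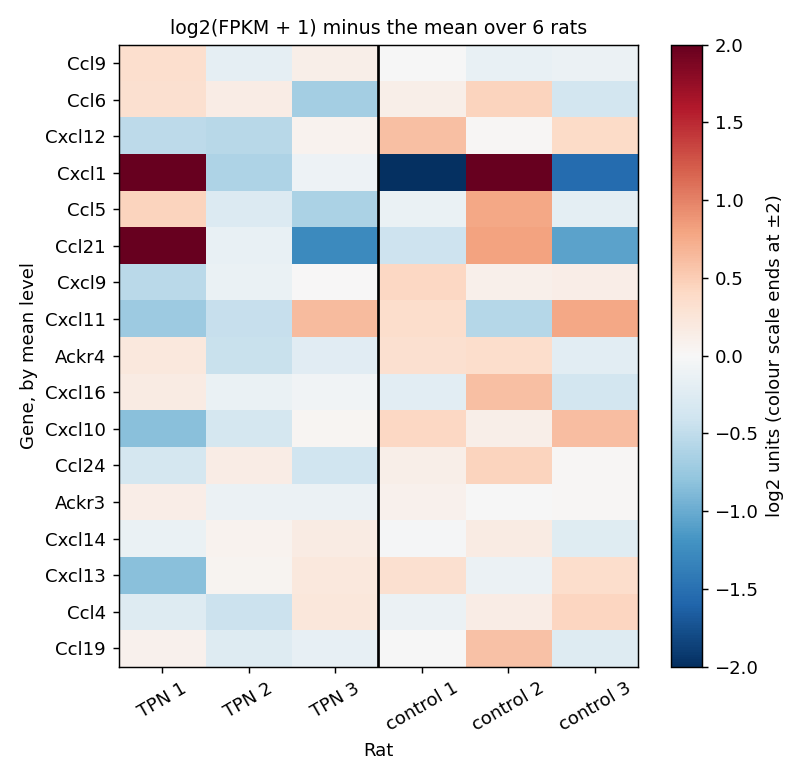
Colour map of log2(FPKM + 1) minus the mean over the 6 rats for 17 of the 18 tested genes, rats in columns with TPN left of the line and control right of it; red is above and blue below the mean. Cxcl1 and Ccl21 have the deepest colours, with TPN 1 and control 2 red.

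Ccl5, a T cell and monocyte attractant that T cells, NK cells and other cells make, measured 12.1, 6.91 and 5.19 FPKM in TPN 1, 2 and 3, against 7.67, 15.3 and 7.37 FPKM in control 1, 2 and 3. Without control 2 its log2 difference of -0.30 (SE 0.35, limma adjusted p = 0.811) became 0.016. Ccl4, a macrophage inflammatory protein, measured 0.844 ± 0.448 FPKM in TPN and 1.26 ± 0.423 FPKM in control (SD, n = 3 each), and Ccl3, a ligand of Ccr1, 0.778 ± 0.415 FPKM in TPN and 0.925 ± 0.133 FPKM in control. B cell markers, 8 of 9 in the table with 5 under a mean of 1 FPKM, summed to 12.9 to 14.0 FPKM in TPN, against 8.10, 33.1 and 8.41 FPKM in control 1, 2 and 3. Jchain of that list supplied most of the sum in control 2. It measured 2.22, 23.3 and 3.78 FPKM in control 1, 2 and 3, and averaged 7.97 FPKM in TPN. Dendritic cell markers, 7 of 7 in the table with 4 under a mean of 1 FPKM, summed to 4.28 to 8.69 FPKM in TPN and 3.08 to 8.73 FPKM in control, with control 2 the highest. The part of these cells in the control 2 values was not tested.

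Kupffer cell markers were tested in 11 of 12 genes, 8 with positive and 3 with negative log2 differences, and none passed over all features. For 3 of the 11, Marco, Cd68 and Cd163, the groups did not overlap and TPN was higher, against 8.02% of all features. They summed to 609 to 904 FPKM in TPN and 489 to 736 FPKM in control. Marco, a scavenger receptor of Kupffer cells, measured 136 ± 37.2 FPKM in TPN and 67.9 ± 5.76 FPKM in control (SD, n = 3 each; log2 difference 0.95, SE 0.24, limma adjusted p = 0.206). Ccl24, an eosinophil attractant that macrophages make, measured 1.39, 2.40 and 1.32 FPKM in TPN 1, 2 and 3, against 2.33, 3.18 and 2.10 FPKM in control 1, 2 and 3. TPN 1 and TPN 3 were below all controls and TPN 2 was not (log2 difference -0.40, SE 0.20, limma adjusted p = 0.503). Cxcl16, the transmembrane ligand of Cxcr6, measured 3.46, 2.64 and 2.79 FPKM in TPN 1, 2 and 3, against 2.42, 5.04 and 2.10 FPKM in control 1, 2 and 3. Cxcr6, a receptor of liver-resident T and NK cells, averaged 0.335 ± 0.0976 FPKM in TPN and 0.307 ± 0.202 FPKM in control.

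Cxcl13, the B cell attractant that binds Cxcr5, measured 0.1196, 1.08 and 1.30 FPKM in TPN 1, 2 and 3, against 1.504, 0.846 and 1.55 FPKM in control 1, 2 and 3. TPN 1 was the low rat, 10.8-fold below TPN 3 (log2 difference -0.38, SE 0.29, limma adjusted p = 0.671). Without TPN 1 the log2 difference was -0.059. Cxcl14, a ligand found in many epithelia, measured 1.32 ± 0.242 FPKM in TPN and 1.22 ± 0.305 FPKM in control (SD, n = 3 each), with a log2 difference of 0.067 (SE 0.17, limma adjusted p = 0.926). Ackr4, an atypical receptor that takes up Ccl19, Ccl21 and Ccl25, measured 4.63, 2.54 and 3.14 FPKM in TPN 1, 2 and 3, against 5.02, 5.15 and 3.20 FPKM in control 1, 2 and 3 (log2 difference -0.31, SE 0.23, limma adjusted p = 0.665). In the RefSeq annotation Ackr4 overlaps Acad11, a gene of fatty acid breakdown at 47.2 ± 7.29 FPKM in TPN and 54.0 ± 4.93 FPKM in control. Whether the library kept the strand is not given in the sources used here, and without it reads of overlapping genes cannot be told apart.

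Among the members under a mean of 1 FPKM, Ccl2, the main monocyte attractant, measured 0.273, 0.244 and 0.641 FPKM in TPN 1, 2 and 3, against 0.774, 0.437 and 1.29 FPKM in control 1, 2 and 3 (exact permutation p = 0.2, 2-sided). TPN 3 lay above control 2, so the groups overlapped, and the rat highest in acute-phase genes was among the lowest here. Its receptor Ccr2 was not analysed here. Xcl1, made by T and NK cells, measured 0.644 ± 0.282 FPKM in TPN and 1.03 ± 0.668 FPKM in control (SD, n = 3 each). Cx3cl1, a membrane-bound ligand, measured 0.169 ± 0.053 FPKM in TPN and 0.261 ± 0.132 FPKM in control, and its receptor Cx3cr1 0.291 ± 0.150 FPKM in TPN and 0.284 ± 0.189 FPKM in control. Ccl1 was the only one of these low members whose groups did not overlap, with 0, 0 and 0.144 FPKM in TPN 1, 2 and 3, against 0.147, 0.231 and 0.277 FPKM in control 1, 2 and 3 (exact permutation p = 0.1, 2-sided, the smallest possible). Of all features under a mean of 1 FPKM, 11.1% lay apart in either direction. The members of this level that are not named singly reached at most 0.787 FPKM in any rat, and their groups overlapped. Ackr2, the atypical receptor that scavenges inflammatory CC ligands, measured 0.286 ± 0.304 FPKM in TPN and 0.352 ± 0.173 FPKM in control (SD, n = 3 each). The 16 members under 0.1 FPKM stayed at or below 0.226 FPKM in every rat.

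Of the chemokine system genes outside the symbol rule, with 18 entries, 9 were tested and none passed over all features, 4 with positive and 5 with negative log2 differences. The groups did not overlap for 1 of the 9, Rarres2, which was lower in TPN. Rarres2 measured 400 ± 99.3 FPKM in TPN and 529 ± 7.51 FPKM in control (SD, n = 3 each; log2 difference -0.43, SE 0.24, limma adjusted p = 0.543). Dpp4, a peptidase that trims and inactivates several chemokines, Cxcl10 and Cxcl12 among them, measured 31.8 ± 13.8 FPKM in TPN and 64.0 ± 19.0 FPKM in control (SD, n = 3 each; log2 difference -1.04, SE 0.37, limma adjusted p = 0.364). Pf4, the platelet chemokine also named Cxcl4, measured 4.72 ± 1.96 FPKM in TPN and 3.26 ± 1.80 FPKM in control. Of 26 entries of receptor signalling 20 were tested, 10 in each direction, and none passed. Of 21 entries of leukocyte adhesion 14 were tested and none passed. The groups did not overlap for 1 of the 14 as higher and 1 as lower. Selp, the P-selectin of endothelium and platelets, measured 1.25 ± 0.176 FPKM in TPN and 2.24 ± 0.508 FPKM in control without overlap (log2 difference -0.52, SE 0.17, limma adjusted p = 0.324). Of 15 entries of glycosaminoglycan presentation, made up of proteoglycan core proteins and enzymes that build the chains, 13 were tested and none passed. Chemokines are held at the cell surface on these chains. Ndst1, a heparan sulfate sulfotransferase, measured 15.9 ± 1.51 FPKM in TPN and 23.5 ± 1.03 FPKM in control without overlap (log2 difference -0.54, SE 0.15, limma adjusted p = 0.248). Of all features tested, 9.09% lay apart as lower, 8.02% as higher and 17.1% in either direction.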

How the data were processed

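Livers of 3 TPN and 3 control rats were grouped by their titles. Per the submitters' processing notes, the tools were Bowtie 0.12.2 and Cufflinks and the build was Rnor_6.0. What each tool did is not given in the sources used here. FPKM values came from 1 table that the authors deposited, with a column named for each rat. Between rats, ratios of low values (under 0.3 FPKM) put at most 1.26% of features in 1 bin of 0.01 (log2), so whole reads could not be recovered, and depth and counting error are unknown.

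Members were matched by symbol, and 1 of them is counted but not reported singly here. Features averaging 1 FPKM or more were tested on log2(FPKM + 1) with limma 3.58.1 (statmod 1.5.0, R 4.3.3; trend and robust settings, 2-sided, Benjamini-Hochberg adjustment at 0.05 over all features), tested first on simulated data. On the log2(FPKM + 1) scale, differences of weakly expressed genes come out too small. Members under that mean had an exact permutation test. Every member with a mean of at least 1 FPKM was named. Lower members that reached 1 FPKM in a rat or whose groups did not overlap were also named, as were fixed ligand and receptor pairs. Genes named from the lists were not always those with the smallest p. Values of S100a9, Stat3, Cd22, Clec4g and Batf3, each the gene with the smallest p of its list, are not given. Further receptors, overlapping genes and marker or acute-phase genes (Ccr1, Ccr7, Cxcr6, Ackr2, Cxcl3, Cxcl6, Art3, Acad11, Alb, Fgg, S100a8, Ltf, Mpo, Elane, Irf1, Pf4, Cd4, Gzmb, Cd3g, Dcn and Col3a1) were chosen after their values were seen. Cd3d, Cd8a, Nkg7 and Jchain were chosen in the same way. Lists held 261 entries in 19 lists, of which 244 matched a row. Members and lists were chosen with earlier results of these data known. Left-out rats kept the same features. Promoters came from the RefSeq table of GRCr8. Figures used matplotlib 3.10.9.

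The 19 alternatives covered the pseudocount (0.1 or 0.01), the filter (none, or a mean from 0.1 or from 5 FPKM up), the scaling (median-ratio, quantile or TPM), moderation without trend and robust settings, sample weights, the replicate number as a block, summed rows, each rat left out in turn, and the pair TPN 1 and control 2 left out. The labels do not set TPN 1 and control 2 apart, and these rats had the highest Lcn2, A2m and Cxcl1 of their groups. The 12 marker lists were those of neutrophils, Kupffer cells, monocytes, T and NK cells, B cells, dendritic cells, platelets, endothelial cells, stellate cells, cholangiocytes, hepatocytes and erythroid cells.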

Additional observations from a re-analysis of the deposited data

How the results depend on the processing

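No member passed limma's test under 18 of the 19 alternatives, and 1, Cxcl12, passed with sample weights. The 28 features called over the table became 18 and 5 with pseudocounts of 0.1 and 0.01, 0 without a filter (1898 at an unadjusted p under 0.05), 6 with a mean of at least 5 FPKM, 0 after median-ratio scaling or quantile normalisation (1579 and 1591 at an unadjusted p under 0.05), 8 without trend and robust settings, 299 with sample weights, 58 with the replicate block, 0 to 46 with 1 rat left out (0 without TPN 3, 1 without TPN 2, 46 without control 2) and 122 with TPN 1 and control 2 left out together. The 4 called genes of the other lists, all erythroid, became 1 and 0 with those pseudocounts, 0 without a filter, 1 with a mean of at least 5 FPKM, 0 after either scaling, 1 without trend and robust settings, 10 with sample weights, 0 to 4 with 1 rat left out and 16 with both rats left out.

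The 2 members without overlap became 1 with a mean of at least 5 FPKM, 2 to 7 with 1 rat left out (7 without control 2, against 32.9% of all features) and 11 with both left out. Cxcl9, Cxcl10 and Cxcl12 kept a negative log2 difference under every alternative that tested them. The sign changed for 6 of the members reported singly, all with an adjusted p over 0.4. Cxcl16 was 0.0066 with TPM scaling, 0.088 with sample weights, 0.19 with both rats left out and -0.20 to 0.28 with 1 left out. Ccl6 was 0.12 with sample weights and -0.35 to 0.16 with 1 left out. With 1 rat left out, Cxcl14 ran from -0.036 to 0.16, Ccl19 from -0.40 to 0.024, Ccl5 from -0.60 to 0.016 and Ccl21 from -0.48 to 1.20. The cause was not tested.

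Deviations from the group means correlated at -0.21, -0.14 and 0.32 for replicate numbers 1, 2 and 3. Between rats of different numbers they correlated at -0.35 to 0.42. Deviations within a group of 3 rats depend on each other, so this check cannot decide whether the numbers pair the rats. The replicate block called no member, and 58 features against 28 without it. Depth is unknown, so members listed at 0 may be expressed below what these libraries detect.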
